A study of Homo sapiens with 20 samples.

Results

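JinB8, a CD47-deficient somatic mutant of the human T lymphoblast line Jurkat, was compared with wild type (WT) Jurkat cells 1 h after plating. The comparison used 8 of the 20 RNA sequencing libraries of the study, 4 from each line, paired by treatment. Each line was left untreated (UT), plated on immobilized anti-CD3 and anti-CD28 antibodies (CD3_CD28; anti-CD28 at 4 μg/ml), plated on the same antibodies with 1 μg/ml thrombospondin-1 (CD3_CD28_TSP1), or given 1 μg/ml thrombospondin-1 alone (TSP1). All cells were in a serum-free medium with insulin, transferrin, selenite and hydrocortisone. Another 6 libraries at 3 h and 6 at 6 h were used to ask whether a difference seen at 1 h differed later, and in 1 alternative model of the 1 h difference. JinB8 is a single mutant line and no other CD47-deficient line was analysed here, so loss of CD47 cannot be told apart from other changes that separate the lines. Every condition was sequenced once, so the 4 libraries of a line are 4 treatments, and p-values measure the spread of the line difference over treatments.

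CD47 is a cell surface receptor for thrombospondin-1 and the counter-receptor of the SIRP family. When the T cell receptor and CD28 are engaged together, calcium, ERK and NF-κB signals switch on immediate early genes within minutes to hours. These encode transcription factors of the FOS, JUN, EGR and NR4A families, and ERK feedback inhibitors of the DUSP, SPRY and SPRED families follow them. Jurkat derives from a T cell leukemia and keeps some features of immature thymic T cells.

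The 8 libraries held from 20483642 to 28525524 expected counts. The T cell markers were in place in both lines. CD3D stood between 283 and 400 CPM (expected counts scaled to the library total after TMM adjustment) in WT and between 345 and 356 CPM in JinB8, and the summed genes of the receptor complex list between 1620 and 2040 CPM in WT and between 1610 and 1670 CPM in JinB8. That list also holds CD28 and CD2, which were higher in JinB8, beside TRAC, which was lower there. Myeloid markers summed to at most 1.55 CPM in any library, with 0 of 7 markers reaching 1 CPM in the mean of a line, and erythroid and epithelial sums, at most 5 and 3.25 CPM, overlapped between the lines. Other low sums differed by line without overlap: B cell markers were at 34.6 to 43.8 CPM in WT and 7.61 to 8.81 CPM in JinB8, NK markers at 1.22 to 2.35 and 6.06 to 7.02 CPM, and fibroblast markers at 3.02 to 7.86 and 10.2 to 12 CPM. Only 2 of 6 B cell, 2 of 6 NK and 3 of 6 fibroblast markers reached 1 CPM in the mean of a line. These sums thus rest on few genes and do not show a cell type. The part of these sums in the line differences was not tested. In bulk RNA, fewer cells of a type and less RNA per cell cannot be told apart. A contrast of GC content divided the libraries: relative to its line, the median of the 3272 genes richest in GC exceeded that of the 3272 poorest by 0.293 on the log2 scale in WT CD3_CD28_TSP1 and by 0.219 in JinB8 UT, and was below it in WT UT (-0.213) and JinB8 TSP1 (-0.199).

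CD47 itself, on chromosome 3 of GRCh38 (chr3:108043091-108091862), was lower in every JinB8 library. WT libraries had 353 CPM (UT), 352 CPM (CD3_CD28), 329 CPM (CD3_CD28_TSP1) and 361 CPM (TSP1). JinB8 libraries had 149, 160, 148 and 162 CPM in the same order. The lines did not overlap, and within each line the treatments were close. The log2 fold change was -1.17 (adjusted p = 4e-06 in edgeR, SE 0.0538), so JinB8 retained CD47 mRNA.

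Among 16429 genes tested, 7487 (45.6%) were called at an adjusted p below 0.05. Of these, 3866 (23.5% of genes tested) were higher and 3621 (22%) were lower in JinB8, and the median log2 fold change of all genes tested was -0.01. A change of more than 2-fold was called for 1172 higher and 944 lower genes. The line difference also moved with GC content: 572 genes were higher and 1036 lower among the 3272 poorest in GC, against 798 and 402 among the 3272 richest, and the part of GC content in the results was not tested. Counts for a gene list are read against these 23.5% and 22%. With the unactivated pairs alone 1827 genes were called, and with the activated pairs alone, also 4 libraries, 7173. In the unactivated pairs, of the genes named below, KLF2, EGR1, LCK, CD40LG, HSPA1A and H2AC16 kept their direction and lost their call. CDKN1A, JUN, THBS1, CXCL8 and SLC7A5 did likewise (edgeR adjusted p from 0.0598 to 0.199 for all). The log2 fold change was smaller there for EGR1 (-0.29 against -0.88 over all pairs), CDKN1A (-0.72 against -1.30), JUN (-0.66 against -0.92), THBS1 (-2.89 against -3.66) and SLC7A5 (-0.49 against -0.655). For KLF2 (1.09), LCK (0.42), CD40LG (0.53), HSPA1A (-1.24), H2AC16 (-1.52) and CXCL8 (6.53, few counts) it was about as large as over all pairs, or larger. All 4 JinB8 libraries lay above all 4 WT libraries for 3878 genes (23.6%) and below them for 3574 genes (21.8%).

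Of 12 genes tested in a list of CD47, its ligands and its membrane partners, 6 (50%) were higher and 5 (41.7%) were lower in JinB8, CD47 among them. SIRPG, a SIRP family receptor of T cells, stood at 1.81 ± 0.0366 CPM in WT and at 17.5 ± 0.628 CPM in JinB8 (SD, n = 4). Its log2 fold change was 3.27 (adjusted p = 1.02e-06 in edgeR, SE 0.109). SIRPA, the inhibitory SIRP receptor of myeloid cells, had 1 count over all WT libraries and between 0.979 and 1.38 CPM in each JinB8 library. The ratio for SIRPA was 104, with a 95% counting interval from 18.3 to 4140, and myeloid marker sums overlapped between the lines. THBS1, which encodes thrombospondin-1, was at 8.29, 11.6 and 11.0 CPM in WT UT, CD3_CD28 and CD3_CD28_TSP1 but at 0.163 CPM in WT TSP1, and at 0.16 to 1.32 CPM in JinB8. The lines therefore overlapped for THBS1. Its log2 fold change was -3.66 (adjusted p = 0.000557 in edgeR, SE 0.464), and in the unactivated pairs alone -2.89 (adjusted p = 0.0992). The mean of its log2 differences within pairs, at a pseudocount of 0.5 CPM, was smaller, at -2.399 (SD 1.67, n = 4).

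Immediate early genes were mostly lower in JinB8, and their activation response was smaller there. Of 34 members tested, 18 were lower and 6 were higher in JinB8, against 22% and 23.5% of all genes. The median log2 fold change of the list was -0.53. With the unactivated pairs alone 10 members were called lower and the median was -0.18, and with the activated pairs alone 23 and -0.84. FOSB, EGR1, EGR2, EGR3, EGR4, NR4A1 and NR4A3 fell, whereas MYC, IER5, KLF2, KLF4, NFKBIZ and FOSL2 were higher. The log2 difference between activated and unactivated libraries had a median over the list of 0.56 in WT and 0.08 in JinB8. It was the larger one in WT for 31 of 34 members, against 52.4% of all genes. The same held for 78 of 81 ribosomal protein genes (medians 0.25 in WT and 0.02 in JinB8), 24 of 24 glycolysis genes and 21 of 25 sterol synthesis genes. The pattern was thus not limited to immediate early genes.

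The promoters of EGR1 and DUSP2 are shown because they belong to genes with the smallest p-values in the test of line and activation and hold binding motifs of the pathway. The windows are the 250 bases before the first start site listed by RefSeq on GRCh38.p14, on chr5:138465229-138465478 (plus strand) for EGR1 and chr2:96145441-96145690 (minus strand) for DUSP2. Capitals mark CArG boxes, the motif bound by serum response factor, in EGR1, and the EGR motif GCGGGGGCG in DUSP2.
EGR1: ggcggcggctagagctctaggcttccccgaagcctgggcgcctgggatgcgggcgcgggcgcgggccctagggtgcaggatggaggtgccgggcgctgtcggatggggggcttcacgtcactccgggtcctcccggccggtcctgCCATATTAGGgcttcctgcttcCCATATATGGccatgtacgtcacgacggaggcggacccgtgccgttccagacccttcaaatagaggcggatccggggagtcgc
DUSP2: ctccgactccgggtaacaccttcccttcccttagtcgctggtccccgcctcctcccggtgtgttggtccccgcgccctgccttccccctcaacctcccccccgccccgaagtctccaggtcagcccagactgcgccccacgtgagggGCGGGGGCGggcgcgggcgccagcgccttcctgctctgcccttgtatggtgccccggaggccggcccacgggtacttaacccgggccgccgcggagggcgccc
A CArG box, searched on both strands, was in 1.14% of 27305 promoters of this length and in 2 of 26 matched immediate early genes, EGR1 and SRF. The EGR motif was in 4.68% of all promoters, in 5 of 26 immediate early genes and in 4 of 14 ERK feedback genes. A match describes these letters in this window and not binding.

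FOSB, an AP-1 subunit on chromosome 19, had the lowest log2 fold change of the list. WT libraries had 73.4 CPM (UT), 88.0 CPM (CD3_CD28), 112 CPM (CD3_CD28_TSP1) and 65.8 CPM (TSP1). JinB8 libraries had 14.5, 15.03, 14.6 and 12.1 CPM. JinB8 was thus low and flat in all treatments, with a log2 fold change of -2.57 (adjusted p = 2.23e-06 in edgeR, SE 0.104). FOS, the partner family member, behaved otherwise. In WT it was at 27.1 and 34.6 CPM in UT and TSP1 and at 81.2 and 95.7 CPM in the activated libraries, and in JinB8 it stayed between 45.8 and 53.9 CPM. JinB8 was above WT without activation and below WT with it, and no line difference was called for FOS over the 4 pairs (-0.04, edgeR adjusted p = 0.908). JUN, its dimer partner, was at 74.2, 94.9, 149 and 99.4 CPM in WT and at 67.3, 50.6, 56.3 and 43.2 CPM in JinB8, with a log2 fold change of -0.92 (adjusted p = 0.00496 by edgeR) and, in the unactivated pairs alone, -0.66 (adjusted p = 0.199). In each line the library highest in JUN was also the one highest in the GC contrast, WT CD3_CD28_TSP1 and JinB8 UT. FOSB, FOS, EGR1, EGR3 and NR4A1 were also highest in that WT library, but none was highest in JinB8 UT. The part of the GC contrast in these results was not tested.

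NR4A1, an orphan nuclear receptor widely used as a readout of T cell receptor signaling, was higher in the activated WT libraries. Its WT level was 173 CPM (UT) and 200 CPM (TSP1), and 376 and 475 CPM in CD3_CD28 and CD3_CD28_TSP1. In JinB8 the 4 libraries had 60.9 (UT), 64.0 (CD3_CD28), 72.5 (CD3_CD28_TSP1) and 43.5 CPM (TSP1). The groups did not overlap, with a log2 fold change of -2.25 (adjusted p = 6.68e-05 in edgeR, SE 0.184). NR4A3 of the same family gave -2.54 and EGR3, an EGR factor that restrains T cell activation, -2.06. EGR2 was at 36.7, 102, 102 and 40.6 CPM in WT and 14.2, 23.4, 21.2 and 15.9 CPM in JinB8. Both lines had more EGR2 with activation, and JinB8 was below WT at each treatment (log2 fold change -1.79, edgeR adjusted p = 0.000124). EGR1 was at 74.5 and 64.3 CPM in WT UT and TSP1 and at 152 and 182 CPM in the activated WT libraries, and between 54.2 and 62.4 CPM in JinB8. The lines were thus close in EGR1 without activation and apart with it. The EGR1 log2 fold change was -0.88 (adjusted p = 0.0137 by edgeR), -0.72 (adjusted p = 0.0787) without the CD3_CD28 pair and -0.65 (adjusted p = 0.0525) without the CD3_CD28_TSP1 pair.

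**Figure D1:**
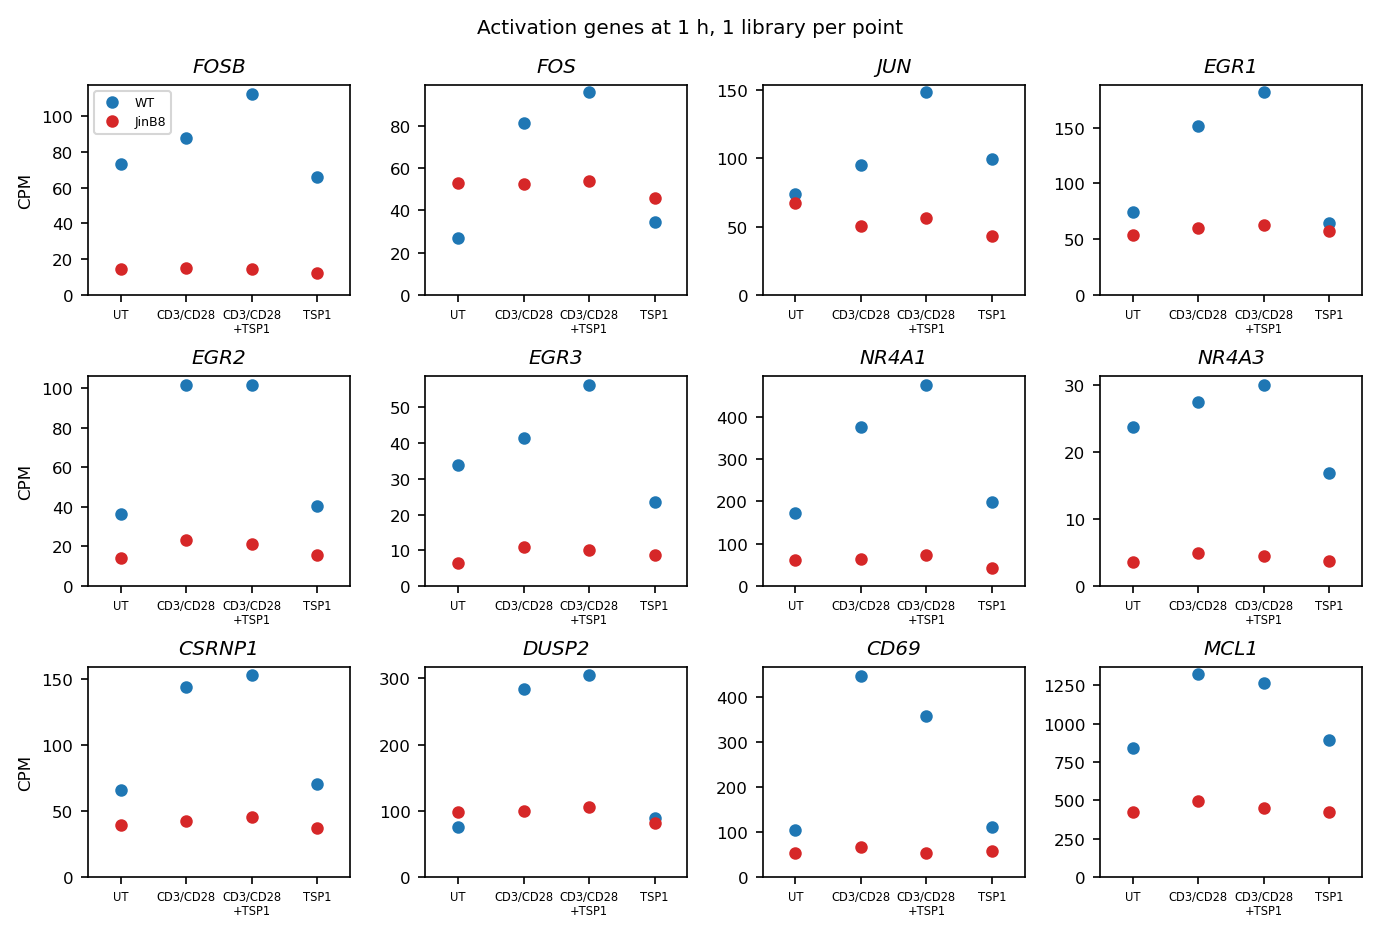
Level in CPM (linear axis from 0) of 12 activation genes in the 4 WT (blue) and 4 JinB8 (red) libraries at 1 h, 1 point per library, by treatment. For DUSP2, JinB8 points lie between 81.0 and 106 CPM, while WT points go from 75.6 CPM in UT to 306 CPM in CD3_CD28_TSP1.

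CD69 and MCL1 of the immediate early list were also lower in JinB8. CD69, an early activation antigen, was at 103 and 110 CPM in WT UT and TSP1 and at 447 and 358 CPM in CD3_CD28 and CD3_CD28_TSP1. In JinB8 it was at 52.8 (UT), 66.1 (CD3_CD28), 53.8 (CD3_CD28_TSP1) and 58.6 CPM (TSP1). JinB8 was below WT in every library, with a log2 fold change of -1.85 (adjusted p = 0.00395 in edgeR, SE 0.351). MCL1, an anti-apoptotic BCL2 family member, stood at 1082 ± 249 CPM in WT and at 449 ± 34.5 CPM in JinB8 (SD, n = 4), a log2 fold change of -1.24 (adjusted p = 4.87e-05 by edgeR). In the opposite direction, the NF-κB cofactor gene NFKBIZ went from 0.926 to 4.40 CPM and IER5 from 72.2 to 148 CPM in the means of the lines.

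Of 16 ERK feedback genes tested, 9 were lower and 1, DUSP6, was higher in JinB8, with 5 called lower in the unactivated pairs alone. SPRY4 had the largest decrease, from between 27.9 and 56.0 CPM in WT to between 10.7 and 13.3 CPM in JinB8 (log2 fold change -1.77, edgeR adjusted p = 4.55e-05). NAB1, a corepressor of EGR factors, averaged 123.4 CPM in WT against 72.1 CPM in JinB8. DUSP2, a nuclear MAPK phosphatase, was at 75.6 and 88.6 CPM in WT UT and TSP1 and at 284 and 306 CPM in the activated WT libraries, against 97.9, 100, 106 and 81.0 CPM in JinB8 (UT, CD3_CD28, CD3_CD28_TSP1, TSP1). The lines overlapped for DUSP2 without activation and were far apart with it.

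Whether the line difference itself differed with activation was tested as an interaction, with the libraries with and without TSP1 as replicates. DUSP2 (log2 difference of differences -1.64, SE 0.16) and CD69 (-1.81, SE 0.186) were the only genes called, at an adjusted p of 0.0298 each by edgeR, which is 0.0122% of genes tested. At an unadjusted p under 0.05 there were 561 genes (3.41%), of which 373 (2.27%) were negative, and 14 of the 34 immediate early genes were among them, all 14 negative. FOS (-1.41, adjusted p = 0.106), EGR1 (-1.14, adjusted p = 0.106) and CSRNP1 (-0.93, adjusted p = 0.0827), an AXIN1-regulated nuclear protein, did not pass in this edgeR fit. They passed in DESeq2 and in edgeR with no low-count filter, and FOS also passed without WT TSP1 (adjusted p = 0.0376). With an added TSP1 term 0 genes passed (413 at an unadjusted p under 0.05), and DUSP2 and CD69 then had an adjusted p of 0.08. Leaving out 1 library kept DUSP2 only without WT TSP1, JinB8 UT or JinB8 TSP1, and CD69 only without WT CD3_CD28_TSP1 or JinB8 UT. In the other such fits their adjusted p was 0.0546 to 0.185, and both kept their direction. The positive genes with the smallest p, RNU1-2, HBG2 and HBG1, did not pass in this edgeR fit either (adjusted p = 0.181, 0.181 and 0.239), and passed in DESeq2 (adjusted p = 2.82e-09, 8.47e-07 and 0.000317) and in edgeR with no low-count filter. RNU1-2 also passed in limma voom with quantile normalization (adjusted p = 0.0393) and HBG2 without JinB8 CD3_CD28 (edgeR adjusted p = 0.0232). DESeq2 called 4 genes positive and 8 negative. The 3 genes have near-identical copies, so their estimates are uncertain.

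Components of the T cell receptor and of costimulation differed in both directions. Of 15 genes in the receptor complex list, 7 were higher and 3 were lower in JinB8, and the 3 lower ones were the receptor constant genes TRAC, TRBC1 and TRBC2. The higher ones included CD28 and CD2, which are in the list but are not chains of the receptor. TRAC, the α chain, was at 137, 200, 172 and 143 CPM in WT and at 23.2, 24.8, 25.4 and 21.6 CPM in JinB8 (UT, CD3_CD28, CD3_CD28_TSP1, TSP1). The lines were far apart at every treatment, with a log2 fold change of -2.77 (adjusted p = 5.49e-07 in edgeR, SE 0.0814). CD3D and CD3E, the signaling chains, were not called (0.09 and 0.07, adjusted p = 0.39 and 0.428). CD28, the costimulatory receptor that the plated antibody engages, was at 25.4, 26.3, 24.5 and 26.3 CPM in WT and at 225, 233, 227 and 229 CPM in JinB8. The lines were far apart and each was nearly level across treatments, an 8.92-fold difference (log2 fold change 3.16, adjusted p = 9.97e-08 in edgeR, SE 0.0563). CD2, an adhesion receptor that costimulates, went from 35.4 ± 1.3 to 111.6 ± 4.65 CPM (SD, n = 4).

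CD226, a costimulatory receptor that competes with TIGIT for ligands, was at 33.9, 23.5, 24.0 and 26.3 CPM in WT and at 246, 277, 253 and 282 CPM in JinB8. Among abundant genes, those averaging a log2 CPM of 7 or more, it had the highest log2 fold change (3.31, adjusted p = 1.37e-06 in edgeR, SE 0.118). Of 15 checkpoint and costimulation genes, 7 were higher and 2 were lower. CD27, a TNF receptor family member, rose from 0.789 to 4.14 CPM, and CD40LG, the ligand of CD40, from 8.93 to 12.4 CPM in the means.

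Of 33 genes of receptor-proximal signaling, 18 (54.5%) were higher and 5 (15.2%) were lower, with a median log2 fold change of 0.31, and 11 were called higher in the unactivated pairs alone. The adaptor genes TRAT1 (24.1 to 97.2 CPM) and GRAP2 (27.7 to 97.1 CPM) rose, as did the kinase gene PRKCQ (58.5 to 122.6 CPM). LCK, which phosphorylates the receptor chains, rose less, from 516 to 641 CPM (log2 fold change 0.31, edgeR adjusted p = 0.0131). Without the CD3_CD28_TSP1 pair its log2 fold change was still 0.31, at an edgeR adjusted p of 0.0622. ZAP70, the kinase recruited to the phosphorylated chains, was lower, and in each line highest in the library with the highest GC contrast, at 182, 176, 259 and 222 CPM in WT and 108, 78.0, 92.2 and 71.4 CPM in JinB8 (log2 fold change -1.26, edgeR adjusted p = 0.000242). PTPRC (CD45) averaged 609 CPM in WT against 610 CPM in JinB8.

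**Figure D2:**
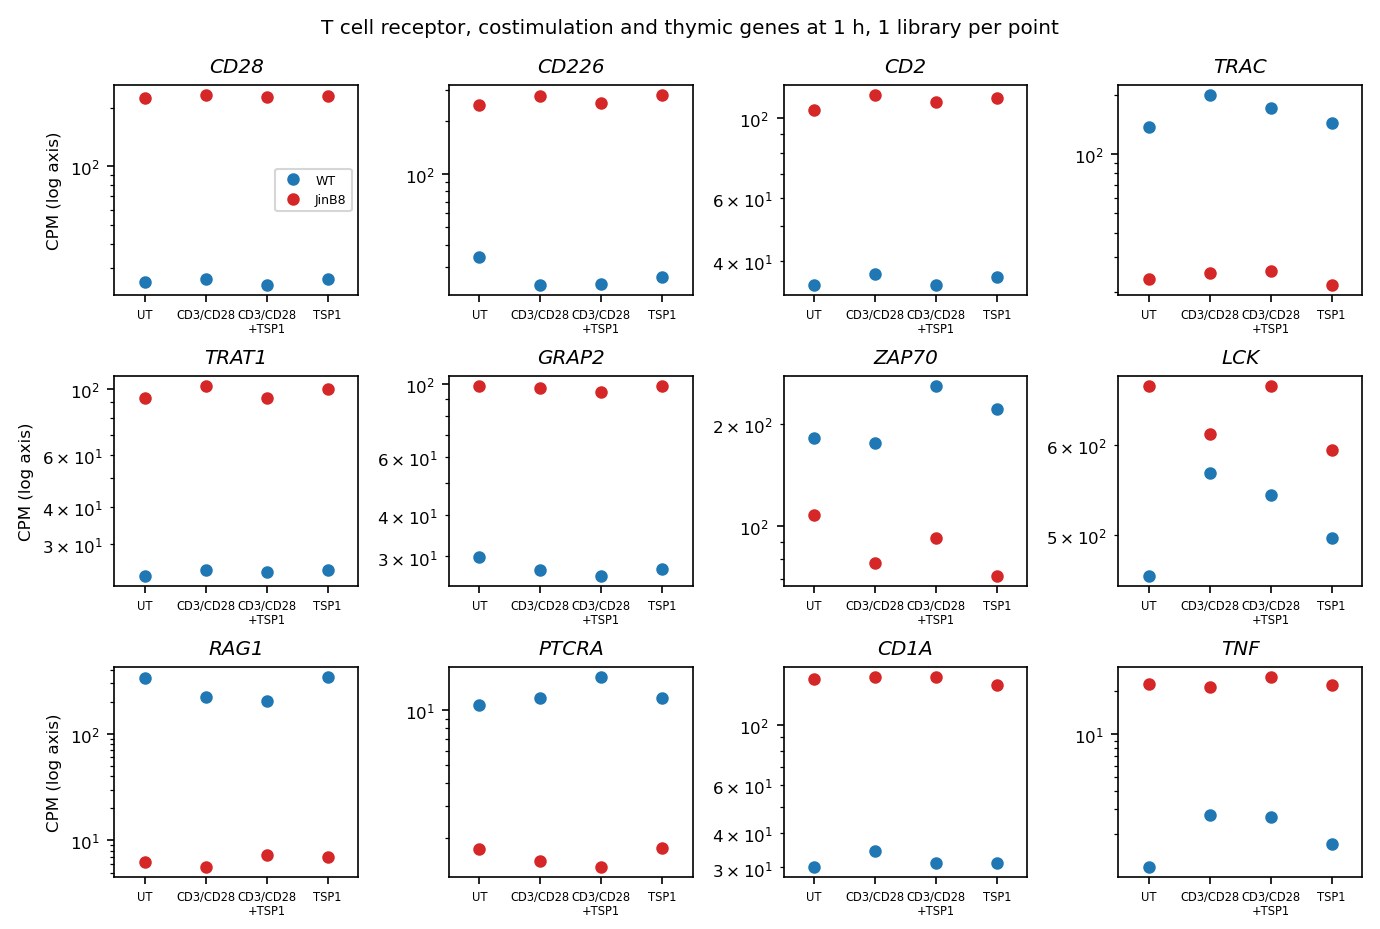
Level in CPM (log axis, a separate range for each gene) of 12 receptor, signaling, thymic and cytokine genes in the 4 WT (blue) and 4 JinB8 (red) libraries, 1 point per library, by treatment. JinB8 is above WT in each library for CD28, CD226, CD2, TRAT1, GRAP2, LCK, CD1A and TNF, and below it for TRAC, ZAP70, RAG1 and PTCRA.

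Of 13 cytokine genes tested, 9 were higher and 1 was lower in JinB8, with 4 of 14 called higher in the unactivated pairs alone. The list names 24 genes, and a gene silent in 1 line passes the filter only through the other line. With no low-count filter 9 of 22 were called higher, and lower calls were not counted in that fit. TNF was at 1.17, 2.73, 2.62 and 1.72 CPM in WT and at 22.4, 21.6, 25.4 and 22.3 CPM in JinB8 (UT, CD3_CD28, CD3_CD28_TSP1, TSP1). The lines did not overlap, and the fitted difference was 11.3-fold (log2 fold change 3.499, adjusted p = 9.32e-06 in edgeR, SE 0.192). TNFSF14 (LIGHT) rose from 1.04 to 5.35 CPM and TNFSF10 (TRAIL) from 2.79 to 7.80 CPM. CXCL8, a neutrophil chemokine, had 3 counts in all WT libraries together and a ratio of 18.7 (95% counting interval 6.13 to 93), and its call was lost in the unactivated pairs alone (edgeR adjusted p = 0.0598). Of 20 cytokine receptors, 10 were higher and 6 were lower. IL4R rose from 9.71 to 26.6 CPM, and IL7R, which sustains T cells and their precursors, fell from 17.4 ± 2.84 to 5.04 ± 0.282 CPM.

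Of 22 homing and adhesion genes, 10 were higher and 8 were lower (45.5% and 36.4%). Among the integrin genes, ITGA1 rose from 9.89 to 76.9 CPM and ITGA6 from 27.6 to 142 CPM, while ITGA4, the α chain of VLA-4, fell from 479 to 196 CPM. CCR9, a gut homing chemokine receptor, fell from between 7.12 and 9.40 CPM to between 1.39 and 1.52 CPM. S1PR1, which guides exit from lymph nodes, rose from 16.2 to 57.9 CPM.

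Genes of thymic development fell on balance, 7 of 13 lower and 3 higher. RAG1, a subunit of the V(D)J recombinase on chr11:36510372-36593156, was at 337 and 344 CPM in WT UT and TSP1, at 224 and 204 CPM in the activated WT libraries, and between 5.59 and 7.38 CPM in JinB8. RAG2, the other subunit, was between 39.8 and 51.2 CPM in WT and between 2.85 and 3.21 CPM in JinB8. PTCRA, the surrogate α chain of the pre-T cell receptor, fell from 12.4 to 1.60 CPM (log2 fold change -2.93, edgeR adjusted p = 1.12e-05). CD1A, a cortical thymocyte antigen, went the other way, from 31.8 to 147 CPM, and DNTT, the template-independent polymerase of the same recombination step, rose from 131 to 181 CPM.

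Transcription factor genes of the lineage were split, 14 of 35 higher and 12 lower. LYL1, a basic helix-loop-helix factor related to TAL1, rose from 0.384 to 6.34 CPM (log2 fold change 4.05, edgeR adjusted p = 0.000118). HES1, a Notch target, rose from 11.1 to 51.6 CPM and ETS1 from 207 to 682 CPM. IKZF3 (Aiolos) fell from 15.3 to 1.75 CPM. Of 12 genes of the MYC network, 5 were higher and 2 were lower. MYC rose from 26.5 to 53.2 CPM (log2 fold change 1.01, edgeR adjusted p = 0.000152).

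Cholesterol synthesis genes were lower in JinB8 with few exceptions. Of 25 sterol and fatty acid synthesis genes tested, 22 (88%) were lower and 0 were higher in JinB8, against 22% and 23.5% of all genes, with a median log2 fold change of -0.96. ELOVL6 and ACLY were among the members not called. These genes are transcribed by SREBP factors, which are released from the endoplasmic reticulum when membrane cholesterol is low. CYP51A1, the lanosterol demethylase on chromosome 7, was at 52.6, 62.5, 60.6 and 59.9 CPM in WT and at 0.27, 0.699, 0.584 and 0.208 CPM in JinB8. It was thus close to off in the mutant (log2 fold change -7.07, adjusted p = 5.06e-07 in edgeR, SE 0.201), far outside the range of the rest of the list. HMGCS1, which makes HMG-CoA, was at 457, 562, 476 and 450 CPM in WT and 103, 120, 109 and 120 CPM in JinB8 (log2 fold change -2.10, edgeR adjusted p = 1.01e-06). SQLE, the squalene epoxidase, fell from 171 to 56.8 CPM and IDI1, an isomerase of the isoprenoid steps, from 278 to 91.8 CPM. SREBF2, which encodes SREBP2, fell from 74.4 to 25.7 CPM. With the unactivated pairs alone, 15 members were called lower.

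The promoter of SREBF2 is shown because it was the only one of 19 matched members of the list that held the sterol regulatory element TCACNCCAC, searched on both strands and marked in capitals. The window is chr22:41832855-41833104 on the plus strand, from RefSeq on GRCh38.p14.
SREBF2: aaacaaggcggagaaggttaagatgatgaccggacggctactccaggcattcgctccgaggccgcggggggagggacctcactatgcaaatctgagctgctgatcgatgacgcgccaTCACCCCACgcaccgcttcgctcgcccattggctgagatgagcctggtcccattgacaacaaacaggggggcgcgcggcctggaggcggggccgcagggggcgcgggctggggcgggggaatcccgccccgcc
This element was in 0.875% of the 27305 promoters. That 18 of the 19 windows lack these letters says nothing of SREBP binding elsewhere.

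Of 21 S phase genes, 14 were lower and 0 were higher, with a median log2 fold change of -0.29. RRM2, a ribonucleotide reductase subunit, fell from 534 to 306 CPM and POLA1, the catalytic subunit of DNA polymerase α, from 103 to 53.5 CPM. Without the CD3_CD28 pair 8 of 21 were called lower, and in the unactivated pairs alone 5. The cyclin-dependent kinase gene CDK6 rose from 512 ± 68.1 to 2288 ± 134 CPM (log2 fold change 2.17, edgeR adjusted p = 2.98e-06), and CCND2, which encodes its partner cyclin D2, from 1.53 to 9.29 CPM. CDKN1A (p21), an inhibitor of these kinases, was at 12.3 and 15.2 CPM in WT UT and TSP1, at 35.4 and 38.7 CPM in the activated WT libraries, and between 7.29 and 10.7 CPM in JinB8.

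Class I antigen presentation genes were lower for 11 of 20 and higher for 3, with 3 called lower in the unactivated pairs alone. B2M, the light chain, fell from 813 ± 78.1 to 372 ± 14.4 CPM and HLA-B from 146 to 55.4 CPM. NLRC5, the transactivator of the class I genes, rose from 10.9 to 21.9 CPM. The interferon response list was near the background, 8 of 34 higher (23.5%) and 10 lower (29.4%). Its members went far in both directions, with GBP1, a guanylate-binding protein, falling from 69.1 to 5.19 CPM and IFITM1, an antiviral membrane protein, rising from 14.9 to 49.3 CPM.

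Heat shock genes were also split by member. Of 20 tested, 10 were higher and 4 were lower. HSPA1B, an inducible HSP70, was at 611, 609, 1187 and 926 CPM in WT and 221, 137, 173 and 112 CPM in JinB8 (log2 fold change -2.36, edgeR adjusted p = 0.000194), and HSPA1A moved with it (-1.28). HSPA1B was highest in the WT and the JinB8 library with the highest GC contrast, whose part in the difference was not tested. HSPA1A and HSPA1B are near-identical copies, so the estimates for each are uncertain. The cochaperone gene DNAJB1 rose from 737 to 1368 CPM, HSPA6 from 452 to 732 CPM and HSP90AA1 from 1952 to 2881 CPM, whereas the constitutive HSPA8 was at 2357 and 2333 CPM.

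Histone genes were lower for 27 of 61 and higher for 3, with a median log2 fold change of -0.56. Their summed level was 11400 to 16900 CPM in WT and 8210 to 12700 CPM in JinB8. The share of histone RNA that the mRNA library kit captured was not measured. The counts and sums therefore describe captured RNA, and the part of capture in the line difference was not tested. The highest sum of each line was in the library with its highest GC contrast, WT CD3_CD28_TSP1 and JinB8 UT. Without the UT pair 46 members were called lower, without the CD3_CD28 pair 16, and in the unactivated pairs alone 3. H3C3 and H2BC3 fell much further than the other members, at 143 and 70.3 CPM in WT and 0.349 and 0.457 CPM in JinB8, and the next lowest member of the list was H2AC16 (78.5 to 24.8 CPM). Ribosomal protein genes were lower for 40 of 81 with a median log2 fold change of -0.24, and this count was 14 without the CD3_CD28_TSP1 pair, 21 without the CD3_CD28 pair, 26 with quantile normalization and 0 in the unactivated pairs alone. Their summed level was 97600 CPM in WT CD3_CD28 and 88800 CPM in WT CD3_CD28_TSP1, and between 72300 and 80900 CPM in the other 6 libraries. Before TMM scaling these genes took 8.78% and 8.29% of the counts in those WT libraries, 8.21% in WT TSP1 and 7.48% to 7.8% in the other 5.

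**Figure D3:**
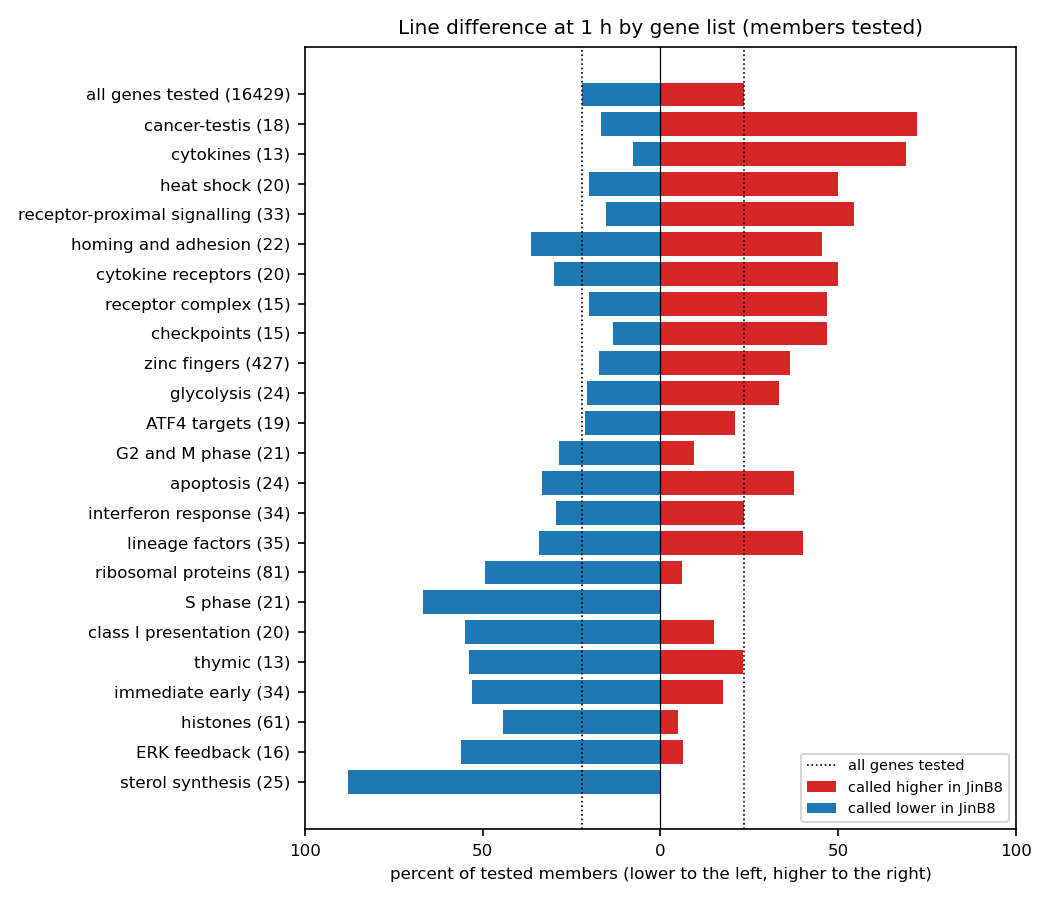
Percent of the tested members of each gene list called lower (blue, to the left) or higher (red, to the right) in JinB8 at 1 h, ordered by median log2 fold change, with the number of members tested. Dotted lines are the 22% and 23.5% of all genes, and sterol synthesis reaches 88% lower. The receptor complex list also holds CD28 and CD2.

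The largest increases among genes averaging a log2 CPM of 3 or more were those of MAGEB1, FSTL5, ECRG4, MAGEA9B, MAGEA2B, CSMD1, GCSAML, MAGEA12, GATA2 and TRIM71, with log2 fold changes from 4.37 (TRIM71) to 8.16 (MAGEB1). Cancer-testis genes, which are normally limited to the germ line and to tumors, supplied 4 of these 10, and 13 of the 18 tested were higher against 3 lower. The list names 89 genes, and a gene silent in 1 line passes the filter only through the other line. The share among tested members therefore depends on the filter. With no low-count filter 19 of 66 were called higher, and lower calls were not counted in that fit. MAGEA9B was at 1.32, 1.55, 1.31 and 1.35 CPM in WT and at 114, 110, 113 and 117 CPM in JinB8. MAGEA2B and MAGEA9B have near-identical copies, so their own levels are uncertain. Over all WT libraries MAGEB1 had 11 counts and FSTL5 12, so the size and order of their increases are uncertain. PRAME, another tumor antigen, rose from 46.6 to 217 CPM. GATA2, a factor of blood progenitors, was at 26.7, 27.3, 26.1 and 17.5 CPM in JinB8 and at most 1.62 CPM in WT, and TRIM71 is an RNA-binding protein of embryonic stem cells.

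The largest decreases at that level were those of H3C3, CLEC2B, ZNF738, H2BC3, CYP51A1, KCNQ3, DAAM2, PREX2, RAG1 and DPYD, from -8.65 (H3C3) to -4.89 (DPYD). DPYD, which breaks down uracil and thymine, was between 48.5 and 56.4 CPM in WT and between 1.67 and 1.80 CPM in JinB8. CLEC2B, a C-type lectin, was at 17.2 and 0.0578 CPM and the Wnt pathway gene DAAM2 at 64.4 and 0.898 CPM. For CLEC2B the JinB8 libraries held 6 counts in all, so the size of its decrease is uncertain. RCBTB2 (31.6 to 228 CPM) and GTF3C5 (55.8 to 201 CPM), a subunit of transcription factor IIIC, completed the 5 highest of the abundant genes, with CD226, PRAME and CDK6.

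In 14 genes JinB8 had at most 3 counts in all while every WT library had at least 1 CPM, and in 13 genes the reverse held. KIT, the stem cell factor receptor, had 2 counts in JinB8 and between 4.74 and 6.29 CPM in WT, a ratio of 283 (95% counting interval 78 to 2350). PCDH19, UNC13C and OR3A2 had 0 counts in JinB8 and were at least 75-fold, 72-fold and 52-fold lower, taking 3 counts over the line as the floor. HOXA10, a homeobox gene, had 1 count in JinB8 and at least 1.03 CPM in each WT library. In the other direction ZNF679 had 0 counts in WT and was at least 41-fold higher in JinB8, and 6 of the 13 were long noncoding RNA genes.

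The line difference was not spread evenly along the genome. Windows of 40 neighboring tested genes, advanced by 20, gave 785 medians, and 8 were at or below -0.4 and 3 at or above 0.4. Chromosome X held 25 windows, of which 6 were among the low and 1 among the high. The low windows were adjacent, from chrX:276322 to chrX:49069857, and of the 140 genes there 90 were lower and 9 were higher, with a median of -0.54 (quartiles -0.83 and -0.19). The median of that stretch was -0.46, -0.46, -0.55 and -0.50 in the UT, CD3_CD28, CD3_CD28_TSP1 and TSP1 pairs, so all 4 pairs showed it, and it was -0.54 at 3 h and -0.55 at 6 h. The high window, chrX:150568417-153935080, contains MAGEA genes, and 25 of its 40 genes were higher and 1 was lower. The 300 genes between had a median of -0.02.

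On autosomes, chromosome 15 had 37.9% of 588 genes lower and 13.3% higher, with a median of -0.228. Chromosome 6 had 31.6% of 847 genes lower, chromosome 8 30.2% of 537, and chromosome 13 30% of 293. Chromosome 21 had 34.4% of 209 genes higher, chromosome 4 31.2% of 554, and chromosome 9 30.6% of 643. The other windows past the limits were chr6:24704861-26273412, which holds histone genes, chr10:87357720-94332823, chr19:50358472-52897693 and chr21:41361999-44804717. The stretches were chosen after their values were seen and have no test, and DNA copy number was not measured.

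**Figure D4:**
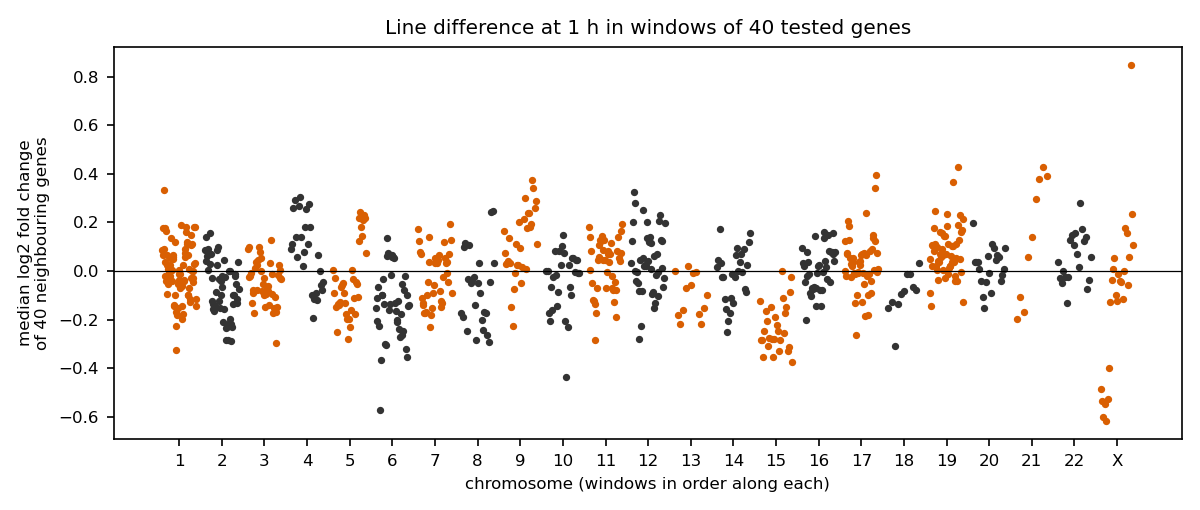
Median log2 fold change (JinB8 against WT at 1 h) of windows of 40 neighboring tested genes, in order along chromosomes 1 to 22 and X, 1 point per window (colors only separate neighbors). The 6 low windows at the start of chromosome X have medians from -0.617 to -0.486, a chromosome 6 window is at -0.57, and the 1 high window near the end of X is at 0.848.

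Whether these differences belonged to 1 h was tested in 18 libraries, without UT, against the mean of the line differences at 3 h and 6 h. Of 16318 genes, 1509 (9.25%) were called, 879 (5.39%) with the JinB8 minus WT difference higher at 1 h and 630 (3.86%) with it lower. Leaving out 1 of the 9 pairs gave from 362 calls, without the CD3_CD28_TSP1 pair at 1 h, to 2796, without that pair at 3 h, and only the fit without CD3_CD28 at 3 h (1149) stayed within 1.5 times of 1509. The share of calls on the higher side was 58.3%, and 48.3% with upper-quartile scaling, 42% with no filter and 37.6% without CD3_CD28 at 1 h. The 17 called of 32 immediate early genes were all lower at 1 h, as were the 14 called of 19 ATF4 target genes and the 5 called of 16 ERK feedback genes.

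FOSB had the steepest change among the immediate early genes. In this model its log2 fold change went from -2.65 at 1 h through -0.20 to 1.41 at 6 h (1 h minus later -3.25, edgeR adjusted p = 6.36e-06). JUN went from -1.17 to 0.20 and 0.23, SPRY4 from -1.86 to -0.64 and 0.32, and CSRNP1 from -1.49 to -0.90 and 0.65. NR4A1 went from -2.49 to -1.82 and 0.17 (adjusted p = 0.0431), a call that was lost in 5 of the 9 fits without 1 pair. For EGR1 the values were -1.02, -0.92 and -1.05, and no difference between times was called (adjusted p = 0.974), with CD69 likewise not called (adjusted p = 0.897). The list median went from -0.70 at 1 h through -0.31 to 0.32 at 6 h.

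The amino acid stress genes that ATF4 controls were called at 1 h no more often than genes in general, and moved apart later. At 1 h, 4 of 19 were higher and 4 lower, and their median was -0.13, 0.44 and 1.12 at 1, 3 and 6 h in the 18 libraries. CHAC1, a glutathione-degrading enzyme, had 14.8 ± 2.31 CPM in WT and 11.6 ± 2.88 CPM in JinB8 at 1 h, with values that overlapped, and log2 fold changes of -0.55, 1.20 and 2.17 with time (1 h minus later -2.24, edgeR adjusted p = 2.62e-06). Among genes picked by their p, GPT2 and SLC1A5 included though outside the list, the cystine transporter gene SLC7A11 went from -0.06 to 1.10 and 3.24, the transaminase gene GPT2 from -0.17 to 1.19 and 2.34, STC2 from -0.14 to 1.23 and 2.13, and the glutamine transporter gene SLC1A5 from -0.12 to 0.58 and 1.89. TRIB3 (47.4 to 171 CPM) and ATF5 (20.4 to 61.4 CPM) were already higher in JinB8 at 1 h and were not called different from the mean of the later times. Against 6 h alone TRIB3 was called, with a line difference higher at 1 h by 0.58 (edgeR adjusted p = 0.00603). ASNS, asparagine synthetase, was higher at 1 h (46.6 to 70.8 CPM) and more so at 6 h (0.58, 0.41 and 1.75).

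Of the 15 checkpoint and costimulation genes, 2 (CD27 and CD226) were called higher at 1 h than later and 1 (TNFRSF14) lower, against 5.39% and 3.86% of all genes. The log2 fold change of CD226 went from 3.46 at 1 h to 1.95 and 1.76 later (adjusted p = 4.71e-06 by edgeR), and that of CD28 was 3.16, 2.03 and 1.93 (adjusted p = 0.00113). AHNAK, a giant scaffold protein gene, stood at 24.9 ± 4.12 CPM in WT and at 125 ± 9.60 CPM in JinB8 at 1 h and went from 2.49 to 1.05 and 0.47. PTPRC, at 0.04 at 1 h in this model, was at -0.75 and -0.93 later, and RUBCNL, an autophagy gene, went from -1.06 to -2.36 and -2.43. Of the 21 G2 and M phase genes, 15 were called higher at 1 h than later, with medians of -0.11, -0.37 and -0.89. By contrast TNF, RAG1, CYP51A1, HMGCS1 and CD47 were not called different between 1 h and the mean of the later times.

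**Figure D5:**
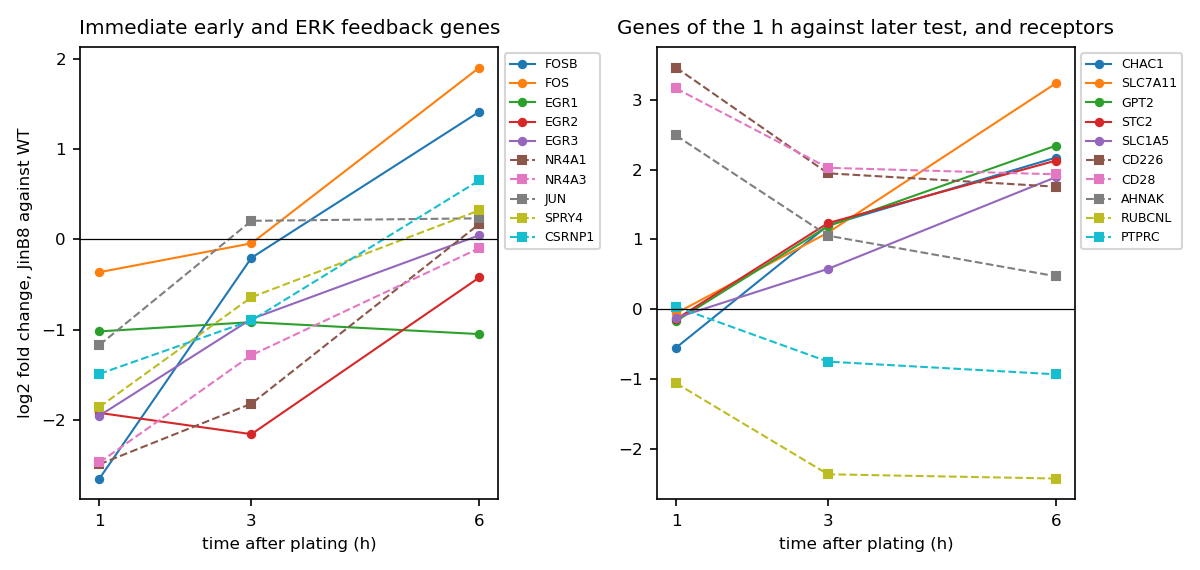
Log2 fold change of JinB8 against WT at 1, 3 and 6 h (UT left out) for 10 immediate early and ERK feedback genes (left) and 10 further genes (right), 1 line per gene, from 1 model of 18 libraries. FOSB goes from -2.65 to 1.41, and CD226 from 3.46 to 1.76.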

How the data were processed

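Per the labels and the study's methods, total RNA was made into libraries with the TruSeq mRNA kit, reads were trimmed with Cutadapt 1.18 and aligned to GRCh38 with STAR 2.4.2a, and the authors deposited expected counts per gene from RSEM 1.3.3. The strand setting is not given in the sources used here. Of the columns, 2 match none of the samples and were not used, nor was the isoform table. The members of the comparison and the gene lists were chosen with earlier results of these data known. Expected counts were rounded and tested in R 4.3.3 with edgeR 4.0.16 (quasi-likelihood, TMM factors, filterByExpr by line with minimum count 10 and total 15, Benjamini-Hochberg over all genes tested, threshold 0.05). The line model had treatment as a block, the interaction model had line, activation and their product, and the model over times had a term for each pair and a line term at each time. CPM used TMM-scaled totals. Standard errors are the log2 fold change divided by the root of F. The smallest p of an exact sign-flip test over 4 pairs is 0.125, so single genes were tested in the fits across genes. Deviations of the lines correlated within treatment at -0.338 (UT), 0.0788 (CD3_CD28), 0.181 (CD3_CD28_TSP1) and -0.17 (TSP1), so treatments did not pair the libraries beyond their label. Genes were named by rules: among called genes whose lines did not overlap, the 10 highest and 10 lowest log2 fold changes at a mean log2 CPM of at least 3 and the 5 of each at 7, the most changed called members and the most abundant members of each list, and the smallest p-values of the other tests. Further genes were named for their known function after their values were seen (among them FOS, EGR1, EGR2, JUN, ZAP70, LCK, CD40LG, S1PR1, ETS1 and MYC). A few genes that these rules name are not reported here. Copies of genes in the pseudoautosomal regions were left out of list counts. Alternatives were DESeq2 1.42.0, limma 3.58.1 (voom, quantile), other scalings and filters, no block, subsets of pairs and all 20 libraries. The scripts were tested on simulated data. Counting intervals are exact, at 95%, and cover counting error only.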

Additional observations from a re-analysis of the deposited data

Results flagged for a closer look

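Among 111 genes examined, leaving out any line below 1 CPM, 9 had 1 library far from the other 3 of its line (Dixon's gap above 0.829 of the range), and chance flags about 1 in 20 groups. In WT these were MAGEA9B in CD3_CD28 (1.55 CPM against 1.31 to 1.35), TNFSF14 in TSP1 (0.694 against 1.121 to 1.179), IL10RA in CD3_CD28 (5.22 against 3.76 to 3.88) and ITGA6 in UT (32.4 against 25.5 to 26.6). In JinB8 they were GATA2 in TSP1 (17.5 CPM against 26.1 to 27.3), DPYD in CD3_CD28_TSP1 (1.67 against 1.79 to 1.80), TNFSF10 in UT (7.45 against 7.89 to 7.94), DNAJB1 in TSP1 (1398 against 1356 to 1360) and IFITM1 in UT (51.8 against 48.4 to 48.9).

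The line difference itself was called different with activation for CD69 (-1.81) and DUSP2 (-1.64). Both calls were lost with an added TSP1 term and in most fits without 1 library. The line difference was also called different between 1 h and the later times for the genes that follow, as the log2 fold change at 1 h minus the mean of 3 h and 6 h. It was lower at 1 h for FOSB (-3.25), CHAC1 (-2.24), SLC7A11 (-2.22), GPT2 (-1.94), STC2 (-1.83), HSPA1B (-1.79), NR4A3 (-1.78), SPRY4 (-1.69), NR4A1 (-1.66, a call lost in 5 of 9 fits without 1 pair), EGR3 (-1.53), HSPA1A (-1.51), JUN (-1.39), CSRNP1 (-1.37), SLC1A5 (-1.36), CDKN1A (-1.34), SLC7A5 (-1.13), DPYD (-1.05), ITGA6 (-0.96), MCL1 (-0.83, a call lost in 7 of 9 fits without 1 pair), ZAP70 (-0.70), SQLE (-0.63), HSPA6 (-0.63) and ASNS (-0.51). It was higher at 1 h for CD27 (1.81), AHNAK (1.73), CD226 (1.61), GCSAML (1.56), RUBCNL (1.34), CD28 (1.18), H2BC3 (1.05), TRAT1 (1.00), SIRPG (0.98), IL7R (0.98), RCBTB2 (0.96), CDKN2C (0.96), PTPRC (0.88), SEL1L (0.83), CD1A (0.73), PRKCQ (0.68), S1PR1 (0.48), ETS1 (0.46), GTF3C5 (0.42) and CD2 (0.39). In H2BC3 (JinB8) and GCSAML (WT) 1 line is close to off at 1 h.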

How the results depend on the processing

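Only a part of the genes named above was followed under each alternative. Of these, the 105 genes called between the lines kept direction and call in 1447 fits and lost the call in 18. The 13 followed, of the 43 genes listed above as called between 1 h and later, did so in 219 and 15, and the 2 called for activation in 17 and 13. None of these called genes changed direction. Genes followed but not called in the main fits gained a call in 4, 5 and 20 fits. Among them, without a call in either fit, the sign turned for FOS (0.70), DUSP2 (0.14) and HSPA8 (0.18) in the unactivated pairs alone, CD3D in the activated pairs alone (-0.012), HSPA8 with upper-quartile scaling (0.00689), no filter (0.0145) and 20 libraries (0.000705), PTPRC with the stricter filter (-0.00646), and, for 1 h against later, EGR1 with quantile normalization (0.11), no replicate block (0.027) and 6 h alone (0.030) and TRIB3 with 3 h alone (-0.19). Without 1 pair the line difference of FOS ranged from -0.37 to 0.23, HSPA8 from -0.067 to 0.086 and PTPRC from -0.024 to 0.035. For 1 h against later, EGR1 ranged from -0.45 to 0.23 without 1 pair. Calls between the lines numbered 7487, and 8085 with no replicate block. With the unactivated pairs alone 1827 genes were called, and lower genes were 10 for immediate early, 5 for ERK feedback, 3 for class I, 5 for S phase, 3 for histones and 0 for ribosomal proteins, and higher genes 11 for receptor-proximal, 4 for cytokines and 46 for zinc fingers (main 156 of 427). With the activated pairs alone, also 4 libraries, 7173 genes were called, histones lower were 43 and ribosomal proteins 63. Ribosomal proteins lower were 26 with quantile normalization and 26 in the model of 20 libraries, and histones 47 with no filter. Leaving out each pair gave 5381 to 7802 calls in all, 8 to 18 S phase genes, 16 to 46 histones and 14 to 57 ribosomal proteins. For activation, 12 genes were called in DESeq2, 158 with no filter, 0 with a TSP1 term, and 0 to 5 without 1 library. For 1 h against later, 421 were called against 3 h alone, 2374 against 6 h alone, 1704 with no replicate block, and 362 to 2796 without 1 pair. TNF differed by 3.241 within pairs at a pseudocount of 0.5 and by 2.634 at 2. The cause was not tested. Levels under 3 counts per library (0.0984 to 0.146 CPM) could not be told from 0.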
